A study of Rattus norvegicus with 24 samples.

Results

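Heart muscle of rats given acupuncture at Neiguan, a point on the inner forearm, was compared with that of rats given acupuncture at Quchi, a point at the elbow, over all genes measured. The 8 arrays titled for these points, 4 for each, were taken from the 24 arrays of the study. Both groups had 7 days of acupuncture at their point, after which ischaemia-reperfusion injury was produced by a ligature on the left anterior descending branch, so every one of the 8 hearts was injured. The groups differ, per the labels, in the acupoint alone. Each array was taken as 1 animal, since the labels number the samples and say nothing of pooling. Neiguan replicates 1 and 3 and Quchi replicates 1 and 2 were males, and the other 4 were females. The other groups were sham, injury with no acupuncture (IRI), Jiaji and Yanglingquan, each with 4 arrays. They set the common estimate of the spread and serve below as points of reference. The labels name no strain, age, needling method or time of reperfusion.

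Neiguan is the point traditionally linked to the heart and chest, and Quchi lies on another channel of the arm. Acupuncture signals are carried by sensory nerves, and the heart receives its answer through sympathetic fibres, which release noradrenaline, and vagal fibres, which act through muscarinic receptors. When a coronary artery is closed and reopened, dying muscle releases alarm signals, leukocytes enter, surviving muscle cells switch on genes of mechanical stress, and mitochondria, which fill much of a heart muscle cell, are damaged. The genes of these processes were set out in lists and are described below list by list.

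Tissue RNA was labelled with Cy3 and hybridised to single-colour Agilent arrays. A level below is the log2 signal of a gene's probe minus the 75th percentile of its array, so a level of 0 marks that percentile, and levels are compared between arrays but not between probes. The share of probes well above background ran from 76.2% to 83.8% on the Neiguan arrays and from 75.6% to 85.6% on the Quchi arrays. Across genes, arrays correlated at 0.985 to 0.992 within Neiguan, at 0.976 to 0.990 within Quchi and at 0.971 to 0.987 between them, and the closest array of each of the 8 belonged to its own group. The level of Eif2s3, which escapes X inactivation, was 2.78 to 3.23 in the 12 females and 2.07 to 2.43 in the 12 males of the study. Heart muscle genes were bright: the mean level over 17 cardiomyocyte markers was 6.09 to 6.25 on the Neiguan arrays and 6.04 to 6.55 on the Quchi arrays. In bulk tissue, fewer cells of a type and less RNA per cell cannot be told apart.

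Scanning and the Quchi arrays set limits on every result below. Per the file headers, the 4 Neiguan arrays shared a scan, Quchi replicates 2 to 4 shared another scan of the same day, and Quchi replicate 1 was scanned on a later day, so scan and acupoint cannot be told apart. The fit with scan as a random block, given below, cannot part them either, and its estimated correlation within scans was negative (-0.0998). The Quchi arrays also divided by sex, and in the same way by signal. Before scaling, the 75th percentile of the log2 signal over spots was 10.25 and 10.26 on the Quchi males. It was 10.90 and 10.60 on the Quchi females and 10.76 to 11.13 on the Neiguan arrays. Within Quchi, sex and signal cannot be told apart, and the part of signal in the calls was not tested. Of all 12894 genes tested, both Quchi males lay above both Quchi females in 25.1% and below them in 23.8%. The same shares were 15.1% and 15.8% in Neiguan. Among genes called lower in Neiguan, both Quchi males lay above both Quchi females in 664 of 1094 (60.7%), and among genes called higher, below them in 322 of 779 (41.3%). Values are therefore given for single arrays, and where a called gene named below was not called in fits without 1 of the 8 arrays, each such array is named with the adjusted p, or its range, in those fits. Of the 138 called genes of the naming rule, 64 were called without each single array. In a fit of the arrays of the shared scan day alone, 55 of the 138 were not called, 7 of them among these 64.

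In total, 1873 of 12894 genes (14.5%) were called between the points at an adjusted p under 0.05 (limma, Benjamini-Hochberg over all genes). Of these, 779 (6.04%) were higher in Neiguan and 1094 (8.48%) were lower. The median absolute log2 difference was 0.77 among the higher and 0.54 among the lower genes, and 204 higher and 146 lower genes differed by at least 1 on the log2 scale. The median over all genes was -0.06. Neiguan arrays all lay above all Quchi arrays in 976 genes (7.57%) and all below them in 1561 (12.1%), and 1536 of the 1873 called genes were among these. The brightest genes were called lower most often: with the genes in 4 classes of equal size by mean level, 2.85% of the brightest class were called higher and 15.8% lower, with a median of -0.16, whereas in the next to faintest class 9.68% were higher and 4.53% lower. The shares were 6.79% and 7.23% in the next to brightest class and 4.84% and 6.36% in the faintest.

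The count rested on single arrays more than on the processing. Without Quchi replicate 2 it was 609 (371 higher, 238 lower), without Quchi replicate 1, the array of the later scan day, 964 (404 and 560), without Neiguan replicate 1, 2 or 4 it was 1054, 1159 and 1061, and without Quchi replicate 4 it was 2685. In all 8 fits that each left out 1 array, 549 genes were called, 323 higher and 226 lower. With quantile normalization 1882 genes were called (863 higher and 1019 lower), with median scaling 1850 (643 and 1207), and with the percentile taken over spots 1515 (823 and 692), so the higher genes went from the smaller to the larger share. With each setting that rescaled the arrays, 1132 of the 1873 genes were called, 560 higher and 572 lower.

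**Figure D1:**
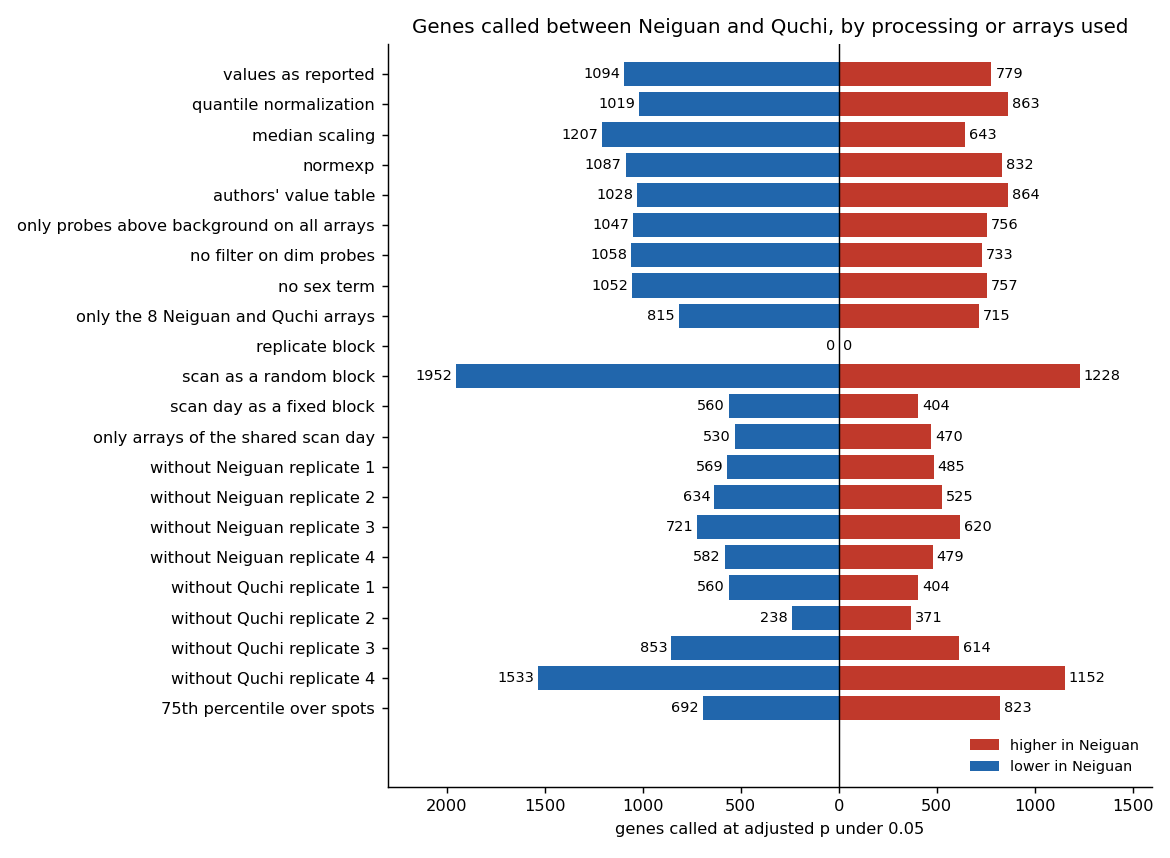
Number of genes called higher (red, right) and lower (blue, left) in Neiguan than in Quchi at adjusted p under 0.05 in the reported fit and in each other setting; the horizontal axis counts genes. Rescaling left the total between 1515 and 1919, while leaving out Quchi replicate 2 left 609 and a block for the replicate number left 0.

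Of the other pairs of acupoints, fitted in the same model, Jiaji and Neiguan differed in 0 genes (0%; limma, with 1499 genes at an unadjusted p under 0.05, 0 calls in each other scaling, 57 without Quchi replicate 1 and 168 with scan as a random block), Jiaji and Quchi in 2704 (21%), Neiguan and Yanglingquan in 2659 (20.6%), Yanglingquan and Quchi in 2075 (16.1%) and Jiaji and Yanglingquan in 3848 (29.8%). These pairs share arrays. The order of the pairs changed with the scaling: with quantile normalization Neiguan and Quchi differed in 1882 genes, Neiguan and Yanglingquan in 1813 and Yanglingquan and Quchi in 1643.

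The largest difference was in Tbx3, a T-box repressor that marks the pacemaker and conduction tissue of the heart. Its level was 3.82, 3.63, 3.84 and 4.25 on the Neiguan arrays and -1.74, -1.40, -0.54 and 0.76 on the Quchi arrays. All Neiguan arrays were far above all Quchi arrays, and the Quchi females lay above the Quchi males. The log2 difference was 4.61 ± 0.70 (SE; limma adjusted p = 0.000287). IRI and sham lay between the points, with mean levels of 1.31 ± 1.82 and 1.98 ± 0.37 (SD, n = 4).

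Uts2 encodes urotensin II, a peptide that acts on vascular tone. Its Neiguan levels were 2.94, 2.78, 2.77 and 3.20, and its Quchi levels -0.66, -1.09, 0.16 and 0.94. The groups did not overlap and differed by 3.09 ± 0.45 (adjusted p = 0.000215). For Il33, an alarm cytokine kept in the nucleus of barrier and stromal cells, the levels were 3.27, 3.12, 3.22 and 3.60 against -0.53, -1.07, 1.93 and 2.07. Again no Quchi array reached a Neiguan array, and the males were lowest (difference 2.70 ± 0.52, adjusted p = 0.00243). Polm, a DNA polymerase of end joining, was at 4.39, 4.41, 4.02 and 5.30 against 1.66, 1.57, 1.26 and 2.13 (2.87 ± 0.46, adjusted p = 0.000522). In contrast to the genes above, Polm showed no split between Quchi males and females. Slit1, a guidance ligand of Robo receptors, was at 1.70, 1.04, 1.1 and 1.96 against -1.08, -1.01, -1.28 and -0.27 (2.36 ± 0.38, adjusted p = 0.000561). The chemokine gene Ccl12 was at -2.01, -1.24, -1.20 and -1.13 against -2.98, -3.14, -3.94 and -4.79 (2.32 ± 0.59, adjusted p = 0.0144), a call that ended without Neiguan replicate 4 (adjusted p = 0.0519). Further genes that did not overlap were Sh3d21 (2.37 ± 0.32), the chondroitin sulphate enzyme gene Chpf2 (2.17 ± 0.42), the acyltransferase gene Acnat2 (2.05 ± 0.23), Spmap2 (1.87 ± 0.46) and Pkib, an inhibitor of protein kinase A (1.77 ± 0.37), with adjusted p from 1.5e-05 to 0.013.

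For several genes of this group another probe did not follow. The chosen probes of the Notch inhibitor gene Numb, the ubiquitin ligase gene Rnf144b, Jsrp1 of the junctional sarcoplasmic reticulum, Fam186b and the histamine H3 receptor gene Hrh3 stood at 1.76, 1.80, 1.78, 2.03 and 1.68. Their other probes stood at 0.14, 0.11, -0.36, 0.27 and -0.09. For all called genes with another probe, the differences of a gene's other probes were averaged. This mean had the direction of the chosen probe in 92 of 146 higher and 136 of 199 lower genes. The median was 0.72 at the chosen probes and 0.18 for these means in higher genes, and -0.49 and -0.22 in lower genes.

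Among the genes lowest in Neiguan, Il13ra2, a decoy receptor for interleukin 13, was at -5.33, -4.86, -5.32 and -5.40 on the Neiguan arrays and at -2.99, -2.69, -3.20 and -3.54 on the Quchi arrays. The groups lay well apart, with a difference of -2.13 ± 0.31 (adjusted p = 0.000215). Tceal7, a member of the transcription elongation factor A-like family, was at 1.61, 1.60, 2.45 and 1.47 against 4.92, 5.15, 2.74 and 2.78. All Quchi arrays were above, but the males by far more than the females, and the difference of -2.11 ± 0.50 (adjusted p = 0.00956, and -1.98 at the other probe) ended as a call without Quchi replicate 2 (adjusted p = 0.0545). Slc3a1, a subunit of the cystine transporter, showed the same split, at 1.57, 1.90, 1.38 and 1.65 against 4.55, 4.48, 3.17 and 2.57 (-2.07 ± 0.44, adjusted p = 0.00532).

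Kcng3, a silent subunit that modifies potassium channels, was at -3.93, -4.11, -3.83 and -3.80 against -2.01, -2.06, -2.40 and -2.46 (-1.69 ± 0.28, adjusted p = 0.000817), with no overlap and little spread within either group. Kcnj1, an inward rectifier best known from the kidney, differed by -1.69 ± 0.39 (adjusted p = 0.00786). Scn3b, a beta subunit of sodium channels, was at -1.15, -0.80, -0.17 and -0.78 against 1.85, 2.05, -0.09 and -0.14. There the Quchi females stood next to the Neiguan arrays, and the call (-1.64 ± 0.40, adjusted p = 0.0108) ended without Quchi replicate 2 (adjusted p = 0.0604). Tnnt1, troponin T of slow skeletal muscle, had the same form, at -1.81, -1.19, -1.60 and -1.48 against 1.02, 1.22, -1.0 and -1.09 (-1.56 ± 0.41, adjusted p = 0.0173). It was not called without Neiguan replicate 1 or Quchi replicate 1 or 2 (adjusted p = 0.0565, 0.0674 and 0.0882), and its other probe stood at -1.60. Dlk1, a Notch-related gene of immature mesenchyme, differed by -1.53 ± 0.36 (adjusted p = 0.00905, and 0.0516 without Quchi replicate 2). Smcp, Tex13c and Cimap1c, known from the testis, the exocytosis sensor gene Doc2b and Sapcd1 differed by -1.81, -1.82, -1.63, -1.61 and -1.55 (adjusted p = 0.00108 to 0.00756), all with no overlap and all called without each single array.

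**Figure D2:**
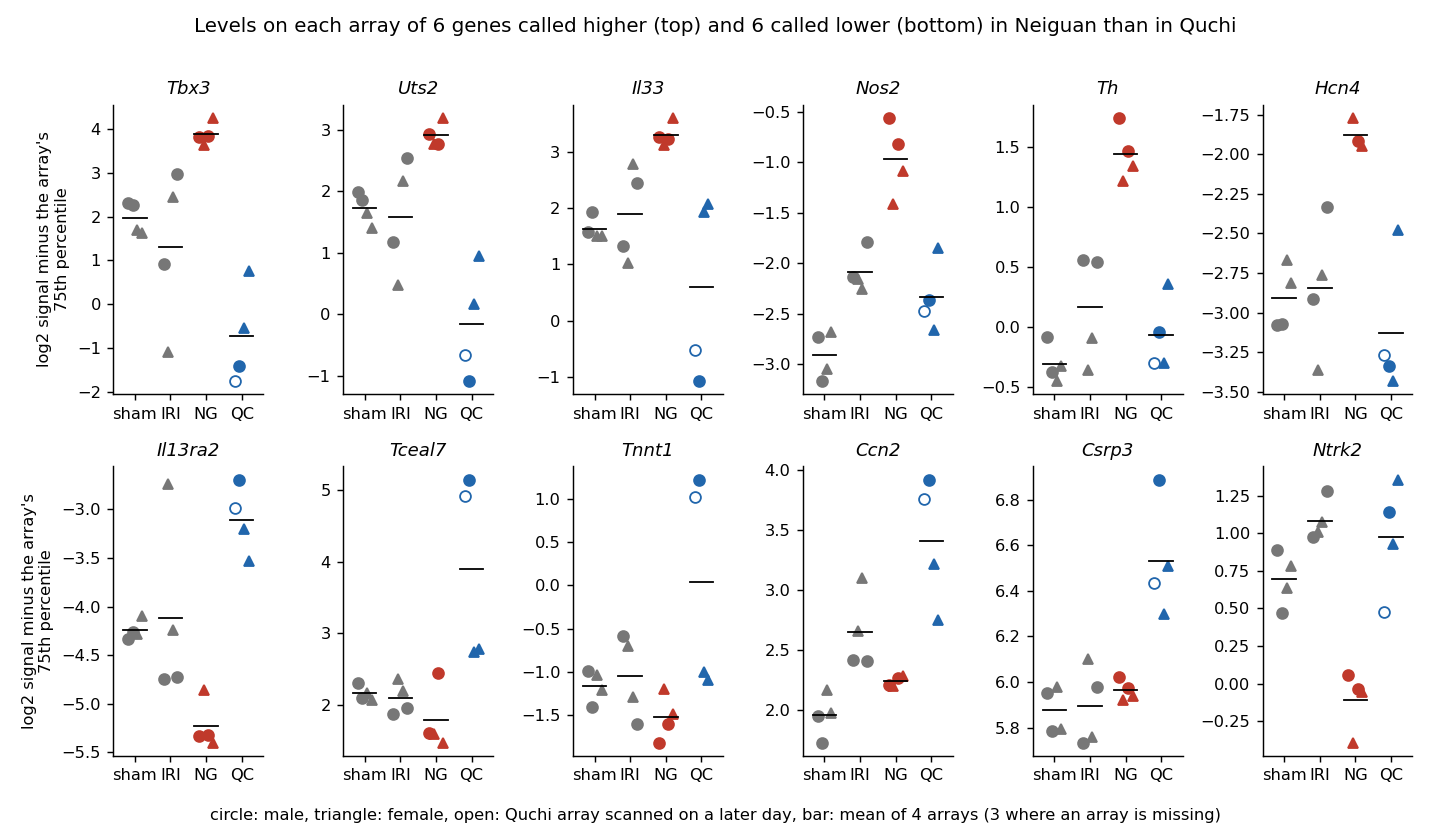
Level of 12 genes on each array of sham, IRI, Neiguan (NG, red) and Quchi (QC, blue); the vertical axis is the log2 signal minus the array's 75th percentile, points are arrays (circles male, triangles female, open circle the Quchi array of the later scan day) and bars are group means. The Neiguan arrays lie apart from the Quchi arrays in each panel (Hcn4 has 3 Neiguan arrays), and in Tceal7 and Tnnt1 the Quchi males stand far above the Quchi females.

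Of the genes of smallest p, Hrh3, given above, was at an adjusted p of 9.94e-08. Lypd2 was at 2.29, 1.83, 1.91 and 1.94 in Neiguan against 0.69, 0.49, 0.18 and 0.87 (1.44 ± 0.12, adjusted p = 1.38e-06). Rtn4rl2, a relative of the Nogo receptor that limits axon growth, was at 4.56, 4.12, 4.50 and 4.26 against 3.30, 3.18, 2.83 and 3.25 (1.22 ± 0.11, adjusted p = 2.34e-06), and Zfp36l2, which speeds the decay of messenger RNA, at 1.56, 1.25, 1.52 and 1.25 against 0.35, 0.20, 0.07 and 0.51 (1.11 ± 0.11, adjusted p = 4.99e-06). In Quchi neither sex stood apart in these genes, while in Neiguan the males lay above the females in Rtn4rl2 and Zfp36l2. In the other direction, the co-chaperone gene Bag5 was at -1.11, -1.06, -0.95 and -1.03 against -0.13, -0.29, -0.38 and -0.46 (-0.72 ± 0.11, adjusted p = 0.000283), and Klhl22, an adaptor of a ubiquitin ligase, at 0.50, 0.43, 0.47 and 0.47 against 0.93, 1.33, 1.17 and 1.34 (-0.72 ± 0.11, adjusted p = 0.000282).

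Over 45 gene lists, 821 genes were tested, of which 39 (4.75%) were called higher and 63 (7.67%) lower, shares close to those of all genes (6.04% and 8.48%). The lists differed in direction.

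**Figure D3:**
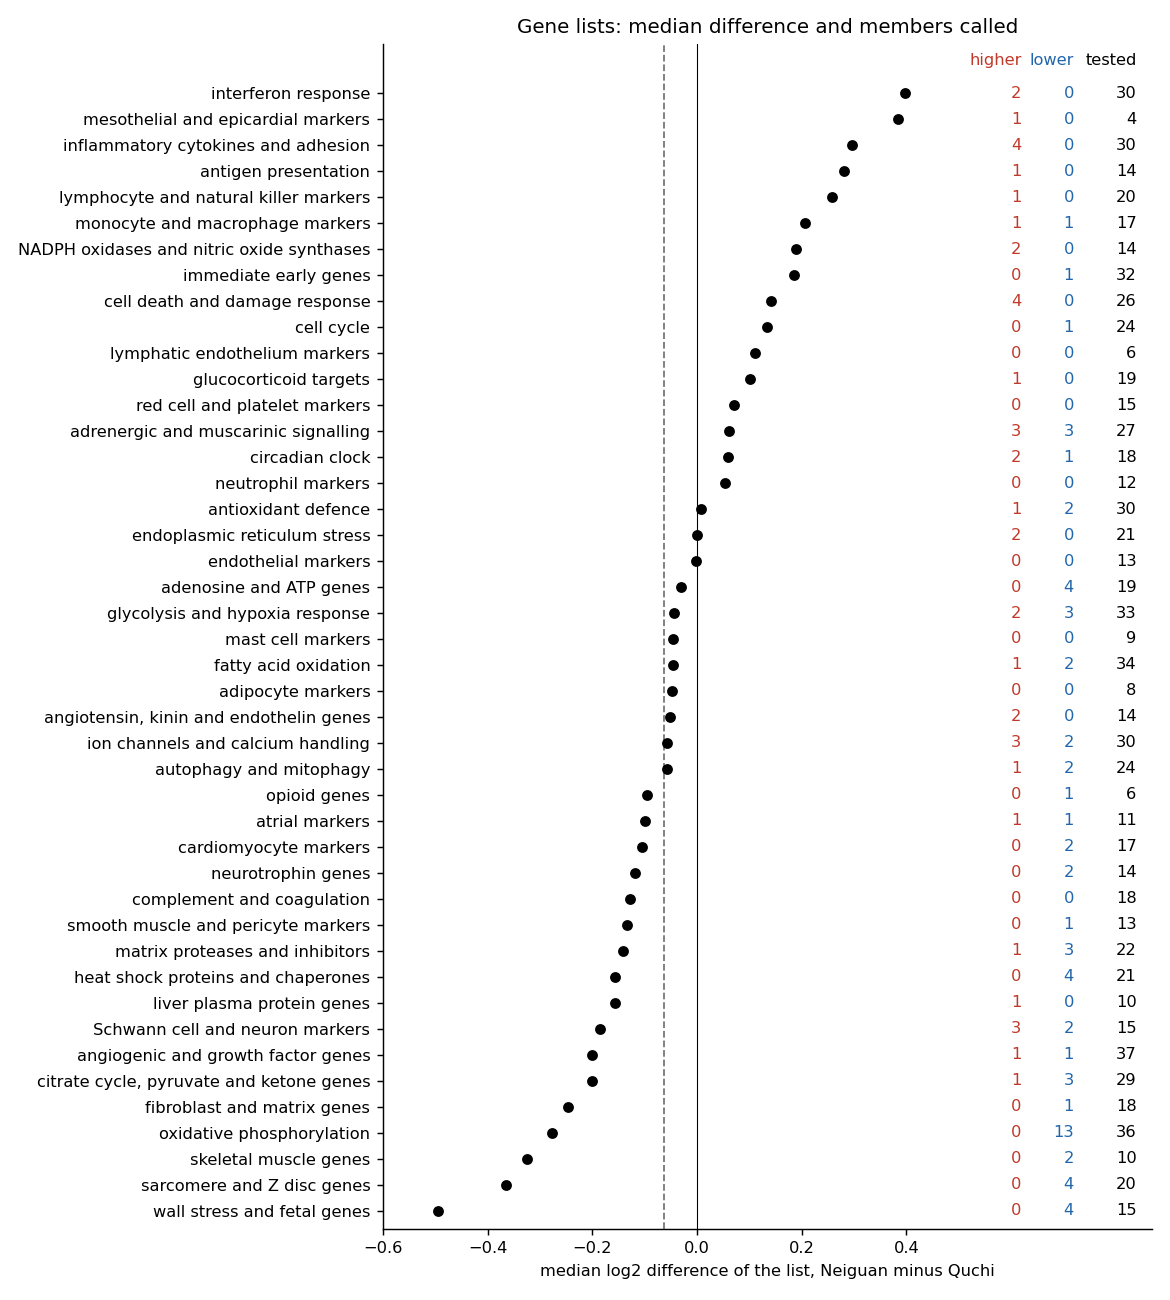
Median log2 difference (Neiguan minus Quchi, horizontal axis) of each gene list with at least 4 genes tested, with the members called higher (red), called lower (blue) and tested (black) at the right; the dashed line is the median of all genes, -0.06. Interferon genes lie furthest to the right at 0.40 and wall stress genes furthest to the left at -0.49, and oxidative phosphorylation has the most members called, 13 of 36, all lower.

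Inflammatory cytokine and adhesion genes were called in one direction: of 30 tested, 4 (13.3%) were higher in Neiguan, 0 were lower, and the median was 0.30 against -0.06 for all genes. Of all genes, 6.04% were higher and 8.48% lower. Nos2, the inducible nitric oxide synthase, was at -0.56, -1.42, -0.81 and -1.08 in Neiguan against -2.47, -2.36, -2.66 and -1.85 in Quchi. Every Neiguan array was higher, and the difference of 1.37 ± 0.18 (adjusted p = 6.96e-05) was called without each single array, as was that of Il33 given above. The count for the list was 2 without Neiguan replicate 4 or Quchi replicate 1, 2 or 3, where 3.71%, 3.13%, 2.88% and 4.76% of all genes were higher. Il1rn, the natural antagonist of interleukin 1, was at -1.10, 0.40, -0.58 and 0.67 against -1.25, -1.82, -1.72 and -1.31 (1.38 ± 0.45, adjusted p = 0.0433). Selp, the P-selectin that catches leukocytes on activated endothelium, was at -3.11, -5.24, -4.38 and -4.19 against -5.37, -6.01, -6.69 and -4.58, with overlap and with 2 Quchi arrays well above background (1.44 ± 0.43, adjusted p = 0.0302). These last calls were lost without Quchi replicate 1, 2 or 3 (adjusted p = 0.0776, 0.143 and 0.0809 for Il1rn, and 0.068, 0.126 and 0.0917 for Selp), and also without Neiguan replicate 4 (0.154 and 0.0857), replicate 2 for Il1rn (0.13) or replicate 1 for Selp (0.107). Il6, Cxcl1, Il10 and Socs3 were not called. Il6 was at -0.27, -2.86, -0.77 and -0.95 against -1.26, -1.41, -2.10 and -1.24 (0.29 ± 0.54, adjusted p = 0.76), Cxcl1 differed by -0.59 ± 0.38 (adjusted p = 0.303), and Il10 and Socs3, which restrain cytokine signalling, by 0.35 ± 0.19 and 0.43 ± 0.16 (adjusted p = 0.234 and 0.0814), the latter pair with no overlap.

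Of 30 interferon response genes, 2 (6.67%) were called higher, against 6.04% of all genes, and 0 lower. The count turned on the setting: it was 6 with only the 8 arrays (5.55% of all genes higher), 6 with scan as a random block (9.52%) and 5 on the arrays of the shared scan day (3.65%). It was 1 without Neiguan replicate 2 or Quchi replicate 3, and 0 (limma) without Neiguan replicate 1 or 3 or Quchi replicate 1 or 2 and once every array had to be above background. In these fits 2.88% to 7.05% of all genes were higher. The median was 0.40, and in 27 of the 30 the difference was above 0. In 8 of the 30 genes every Neiguan array was above every Quchi array, and in 0 every one was below, against 7.57% and 12.1% of all genes. Irf1, the interferon-induced transcription factor, was at 4.44, 4.61, 4.88 and 4.59 against 3.37, 3.25, 3.87 and 4.43 (0.90 ± 0.26, adjusted p = 0.0269, and 0.82 at its other probe). The call was lost without Neiguan replicate 1 or 3 or Quchi replicate 1, 2 or 3 (adjusted p = 0.0504 to 0.11). Ifit1, an antiviral effector, was at 0.02, -1.36, -2.04 and -5.13 in Neiguan and at -7.10, -7.28, -3.61 and -3.42 in Quchi, where 2 arrays were well above background. The groups overlapped (3.23 ± 1.05, adjusted p = 0.0438). It lost its call with normexp (1.83, adjusted p = 0.0593) and without Neiguan replicate 1, 2 or 3 or Quchi replicate 1 or 2 (0.0811 to 0.178). Cxcl10, a chemokine for T cells, was at 4.55, 2.93, 3.89 and 2.82 against 2.49, 2.22, 1.40 and 1.63 (1.61 ± 0.64, adjusted p = 0.0962), and the GTPase gene Gbp2 at 5.18, 4.87, 5.34 and 4.56 against 4.11, 4.10, 4.17 and 4.21 (0.84 ± 0.39, adjusted p = 0.151). Both had no overlap and neither was called. Cxcl9 and Gbp5 stood at 1.35 and 1.01, also with no overlap (named after their values were seen).

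The promoter of Irf1 is shown because it carries a sequence of the type through which interferon gamma acts, TTCNNNGAA, which reads the same on both strands. Capitals mark it in the 300 bases around the start of the gene (RefSeq, GRCr8, chr10:38417685-38417984, plus strand).
Irf1: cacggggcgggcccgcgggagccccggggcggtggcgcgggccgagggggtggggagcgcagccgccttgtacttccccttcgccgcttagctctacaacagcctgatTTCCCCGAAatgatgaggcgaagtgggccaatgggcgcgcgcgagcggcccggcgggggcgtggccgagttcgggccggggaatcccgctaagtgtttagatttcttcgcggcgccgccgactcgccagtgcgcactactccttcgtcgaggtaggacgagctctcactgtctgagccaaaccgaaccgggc
These letters occur in 10 of the 23 interferon response promoters at hand and in 8.87% of 33469 rat promoters of the same length. Of the 2 called interferon response genes, only Irf1 had a promoter at hand. In the inflammatory list the letters occur in 3 of 20 promoters at hand, 0 of them among the 2 of called genes.

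Leukocyte genes were called singly. Cd8b, a chain of the CD8 coreceptor of cytotoxic T cells, was at -1.44, -1.44, -1.63 and -1.47 against -2.81, -2.52, -2.35 and -2.01, with no overlap (0.92 ± 0.17, adjusted p = 0.00222), and was the only one of 20 lymphocyte and natural killer genes called. Of 14 antigen presentation genes, the costimulator gene Cd80 was called (1.49 ± 0.47, adjusted p = 0.0379), a call lost without Neiguan replicate 1, 3 or 4 or any Quchi array (0.0648 to 0.0944). Of 17 monocyte and macrophage genes, the myeloid factor gene Spi1 was higher (0.61 ± 0.21, adjusted p = 0.0498) and the fractalkine receptor gene Cx3cr1 lower (-1.11 ± 0.35, adjusted p = 0.0376). Spi1 lost its call without any 1 of the 8 arrays (0.0528 to 0.14), and Cx3cr1 without any Neiguan array or Quchi replicate 1 or 2 (0.054 to 0.149). Of 12 neutrophil genes and 18 complement and coagulation genes, 0 were called in either direction. The mean level over the neutrophil genes was -3.40 to -2.49 in Neiguan and -3.17 to -2.31 in Quchi.

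Wall stress and fetal genes, which heart muscle cells raise under load, went the other way: 4 of 15 (26.7%) were lower in Neiguan, 0 were higher, and the median was -0.49. Of the 15, 11 belong to the brightest of the 4 classes of genes, in which 15.8% were lower. Csrp3, a stretch sensor at the Z disc, was at 6.02, 5.92, 5.97 and 5.94 in Neiguan against 6.44, 6.89, 6.30 and 6.51 in Quchi. The Neiguan arrays lay close to each other and below every Quchi array (-0.57 ± 0.15, adjusted p = 0.0156, and 0.0813 without Quchi replicate 2). Tnfrsf12a, the receptor of the cytokine TWEAK, was at 1.73, 1.37, 1.70 and 1.14 against 2.57, 2.70, 2.79 and 2.05. It did not overlap either and was called without each single array (-1.04 ± 0.21, adjusted p = 0.00427). Fhl1, a LIM protein of the stretched sarcomere, was at 3.31, 3.62, 3.25 and 3.52 against 4.20, 4.21, 3.67 and 4.16 (-0.63 ± 0.17, adjusted p = 0.0175). With quantile normalization Fhl1 stood at -0.48 (adjusted p = 0.0509), it was not called without Neiguan replicate 1 or 3 or Quchi replicate 1 or 2 (0.0517 to 0.0685), and its other probe stood at 0.09. Xirp2, a repair protein of intercalated discs, was at 2.36, 2.98, 2.38 and 2.33 against 4.09, 4.06, 3.31 and 2.66, with overlap (-1.02 ± 0.29, adjusted p = 0.0265). With quantile normalization it stood at -0.87 (adjusted p = 0.0541), and it was not called without Neiguan replicate 1, 3 or 4 or Quchi replicate 1 or 2 (0.0537 to 0.125).

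The natriuretic peptide genes and Ankrd1 were not called. Nppa was at 2.50, 4.04, 2.32 and 2.88 against 5.57, 5.76, 2.65 and 3.11, so the Quchi males stood above all other arrays (-1.34 ± 0.63, adjusted p = 0.16). Nppb was at 5.76, 5.19, 5.60 and 5.54 against 6.15, 6.25, 5.81 and 5.78 (-0.48 ± 0.24, adjusted p = 0.18), and the stress-induced cofactor gene Ankrd1 at 5.18, 5.51, 5.28 and 4.86 against 5.75, 6.01, 5.90 and 5.60 (-0.61 ± 0.24, adjusted p = 0.0929). In both of the latter all Neiguan arrays were below all Quchi arrays. The count for the list was 1 without Quchi replicate 2 and 2 with quantile normalization, with medians of -0.43 in each. It was also 2 without Neiguan replicate 1 or 3 or Quchi replicate 1 and on the shared scan day, 6 without Quchi replicate 4 and 8 with scan as a random block. The lower share of all genes moved as well. It was 1.85% without Quchi replicate 2, 7.9% with quantile normalization and 4.11% to 5.59% in the fits with a count of 2 named last. Without Quchi replicate 4 it was 11.9%, and with scan as a random block 15.1%.

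Sarcomere and Z disc genes had a median of -0.36, with 4 of 20 (20%) lower and 0 higher. Of the 20, 15 belong to the brightest class, in which 15.8% were lower. Beside Csrp3 these were the cross-linker gene Actn2 at 2.68, 2.67, 2.36 and 2.18 against 3.12, 3.33, 3.19 and 2.95 (-0.67 ± 0.21, adjusted p = 0.0345), the methyltransferase gene Smyd1 (-0.45 ± 0.13, adjusted p = 0.0252) and the tropomyosin gene Tpm2 (-0.51 ± 0.17, adjusted p = 0.0431). Actn2 lost its call without Neiguan replicate 2, 3 or 4 or Quchi replicate 1, 2 or 3 (0.0521 to 0.125), Smyd1 without Neiguan replicate 3 or Quchi replicate 1 or 2 (0.0652 to 0.0933), and Tpm2 without Neiguan replicate 1 or 3 or Quchi replicate 1, 2 or 3 (0.0942 to 0.161). Actn2 and Tpm2 lost it also with quantile normalization (-0.55 and -0.43, adjusted p = 0.117 and 0.0697). Of the list 0 were called without Quchi replicate 2 (limma), 1 without Quchi replicate 1, 2 without Neiguan replicate 3 or Quchi replicate 3 and 6 without Quchi replicate 4. The lower shares of all genes in these fits were 1.85%, 4.34%, 5.59%, 6.62% and 11.9%. The myosin heavy chain genes Myh6 and Myh7 and the troponin gene Tnni3 stood at 0.10 ± 0.15, -0.19 ± 0.14 and 0.06 ± 0.12 (adjusted p = 0.71, 0.373 and 0.786), with overlap.

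Ccn2, a matrix protein gene that rises with stretch and transforming growth factor beta, was at 2.21, 2.20, 2.27 and 2.28 in Neiguan against 3.76, 3.92, 3.22 and 2.75 in Quchi. The Neiguan arrays were nearly alike and below all Quchi arrays, of which the males were highest (-1.17 ± 0.34, adjusted p = 0.0255). The call was lost without Neiguan replicate 2 or 4 or Quchi replicate 1 or 2 (adjusted p = 0.0692, 0.0668, 0.0926 and 0.121). It was the only one of 18 fibroblast and matrix genes called. In 15 of the 18 the difference was below 0, with a list median of -0.25 (-0.72 in males and 0.06 in females). Col1a1, Col3a1 and Postn, which are outside the naming rule, stood at -0.08, -0.29 and -0.26. The Ccn2 promoter (RefSeq, GRCr8, chr1:22624565-22624864, minus strand) is shown for its sites of the kind bound by TEAD factors, which carry the stretch signal of YAP. Capitals mark GGAATG, searched on both strands (CATTCC).
Ccn2: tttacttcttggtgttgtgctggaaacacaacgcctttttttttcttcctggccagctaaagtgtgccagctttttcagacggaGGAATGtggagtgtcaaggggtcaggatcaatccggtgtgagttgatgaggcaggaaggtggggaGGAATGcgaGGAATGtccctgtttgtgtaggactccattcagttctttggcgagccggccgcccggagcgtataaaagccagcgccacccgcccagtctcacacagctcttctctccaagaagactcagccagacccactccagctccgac
The window holds 3 of them, and 14.2% of all rat promoters of this length hold at least 1. Of the 14 fibroblast and matrix promoters at hand 3 held the letters, that of Ccn2, the only called gene of the list, among them. Of the 11 wall stress promoters at hand 3 held them, none of a called gene.

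Oxidative phosphorylation genes, which encode the respiratory chain and ATP synthase, had more members called than any other list. Of 36 tested, 13 (36.1%) were lower in Neiguan and 0 were higher, in 33 the difference was below 0, and the median was -0.28. All 36 belong to the brightest of the 4 classes of genes, in which 15.8% were lower and the median was -0.16. With quantile normalization 6 were lower and 1 higher, with a median of -0.13, with normexp 9 and 1, and without Quchi replicate 2 or 1 the lower numbered 2 and 4. The lower shares of all genes in these fits were 7.9%, 8.43%, 1.85% and 4.34%. On the arrays of the shared scan day only 1 of the 36 was lower, Cox8b, with a list median of -0.29, where 4.11% of all genes were lower.

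Complex I gave 6 of the 13. Its core subunit gene Ndufs1 was at 5.0, 5.27, 5.33 and 4.98 in Neiguan against 5.93, 5.91, 5.64 and 5.39 in Quchi, with no overlap (-0.58 ± 0.13, adjusted p = 0.00874), and was called without each single array but not on the shared scan day (0.0828). Ndufs3 was at 3.97, 3.92, 3.95 and 3.78 against 4.94, 4.72, 4.42 and 4.00 (-0.61 ± 0.16, adjusted p = 0.0166), and 0.0674 and 0.0709 without Quchi replicate 1 and 2. Ndufa1, Ndufb8, Ndufb10 and Ndufv2 differed by -0.45, -0.47, -0.47 and -0.43. Of these calls, Ndufb8 was lost without Quchi replicate 2 (0.0604), Ndufb10 without Neiguan replicate 2, 3 or 4 or Quchi replicate 1 or 2 (0.0539 to 0.12), Ndufa1 without any Neiguan array or Quchi replicate 1 or 2 (0.0686 to 0.207) and Ndufv2 without any Neiguan array or Quchi replicate 1, 2 or 3 (0.0597 to 0.16). Of complex II, the flavoprotein gene Sdha was at 5.81, 5.89, 5.93 and 5.60 against 6.26, 6.41, 6.25 and 6.14 (-0.46 ± 0.11, adjusted p = 0.0098), but stood at -0.31 with quantile normalization (adjusted p = 0.0955), and at an adjusted p of 0.0529 without Quchi replicate 2. Of complex III, Uqcrc1, Uqcrc2, Uqcrfs1 and Uqcrh differed by -0.35, -0.32, -0.30 and -0.44. The first pair was lost without Neiguan replicate 1, 2 or 4 or Quchi replicate 1, 2 or 3 (0.0765 to 0.182 for Uqcrc1 and 0.0583 to 0.138 for Uqcrc2), and the other pair without any Neiguan array or Quchi replicate 1 or 2 (0.0532 to 0.135 for Uqcrfs1 and 0.0533 to 0.121 for Uqcrh). Of complex IV, Cox8b was at 5.57, 5.16, 5.68 and 5.47 against 6.01, 6.37, 5.86 and 6.13 (-0.63 ± 0.13, adjusted p = 0.00428), a call that held without each single array and with quantile normalization (-0.47), and Cox7b differed by -0.47, lost without Neiguan replicate 2 or Quchi replicate 1 or 2 (0.0644 to 0.082). Of the 6 ATP synthase genes 0 were called (limma), with differences from -0.29 to 0.03.

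**Figure D4:**
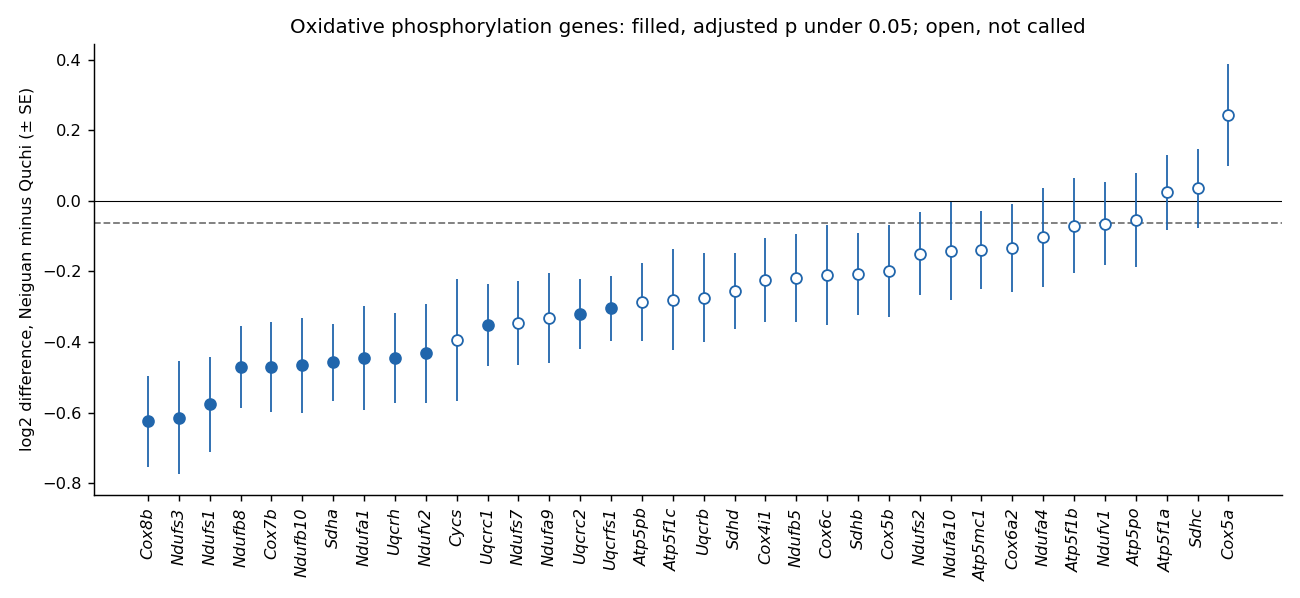
Log2 difference (Neiguan minus Quchi, vertical axis) with its standard error for the 36 oxidative phosphorylation genes in order of size; filled points were called, open points were not, and the dashed line is the median of all genes. In 33 of the 36 genes the difference is below 0, from -0.63 for Cox8b to 0.24 for Cox5a.

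Sdha was one of the called genes of the list with sites of the NRF1 type (searched on both strands), so its promoter is shown with these in capitals (RefSeq, GRCr8, chr1:30764303-30764602, plus strand). NRF1 is a factor known to drive nuclear genes of mitochondria.
Sdha: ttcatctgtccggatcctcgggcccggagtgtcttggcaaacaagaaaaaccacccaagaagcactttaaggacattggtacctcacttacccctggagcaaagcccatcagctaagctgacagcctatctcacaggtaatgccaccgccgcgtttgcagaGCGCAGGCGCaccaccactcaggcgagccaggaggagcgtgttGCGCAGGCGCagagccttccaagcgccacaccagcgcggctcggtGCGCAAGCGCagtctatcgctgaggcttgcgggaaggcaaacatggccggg
The window holds 3 sites, 4.26% of rat promoters hold at least 1, and of the 33 promoters of the list at hand 4 do, 2 of them of called genes (Sdha and Uqcrc1).

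Other energy genes were fewer. Of 29 citrate cycle, pyruvate and ketone genes, Dlst, Idh3g and Sucla2 were lower (-0.58, -0.49 and -0.43) and the pyruvate dehydrogenase kinase gene Pdk3 was higher (0.84 ± 0.23, adjusted p = 0.0221). Dlst, a subunit of the oxoglutarate dehydrogenase complex, was at 4.50, 4.33, 4.44 and 4.27 against 5.17, 5.16, 4.86 and 4.66 with no overlap (-0.58 ± 0.12, adjusted p = 0.0047) and was called without each single array. Idh3g lost its call without Neiguan replicate 1 or 2 or Quchi replicate 1 or 2 (0.0533 to 0.0903), Sucla2 without Neiguan replicate 1 or 4 or Quchi replicate 2 (0.0577 to 0.103), and Pdk3 without Neiguan replicate 2 or 3 or Quchi replicate 1 or 2 (0.0515 to 0.0827). Of 34 fatty acid oxidation genes, Acadvl and Etfb were lower (-0.48 and -0.41) and the lipase gene Lpl higher (0.43), and with quantile normalization Acadvl and Etfb missed the threshold (adjusted p = 0.114 and 0.0782). Acadvl also missed it without Neiguan replicate 2 or 4 or Quchi replicate 2 or 3 (0.0606 to 0.0819), and Etfb and Lpl without any Neiguan array or Quchi replicate 1, 2 or 3 (0.0541 to 0.145 and 0.0584 to 0.139). Of 33 glycolysis and hypoxia genes, Hif1a, the oxygen-regulated transcription factor, was at -0.63, 0.09, -1.0 and -0.50 in Neiguan against -2.05, -2.02, -1.26 and -1.09, higher on every array (1.1 ± 0.25, adjusted p = 0.00835). Hk2, which traps glucose in the cell, was higher by 0.88 ± 0.27 (adjusted p = 0.0348), a call lost without Neiguan replicate 2 or 4 or Quchi replicate 1, 2 or 3 (0.0635 to 0.124). The glycolytic enzyme genes Eno1, Gapdh and Pfkm were lower (-0.48, -0.36 and -0.34) and missed the threshold with quantile normalization (-0.31, -0.21 and -0.17, adjusted p = 0.168, 0.183 and 0.29). Eno1 missed it also without Neiguan replicate 1 or 4 or Quchi replicate 1 or 2 (0.055 to 0.113), Gapdh without Neiguan replicate 2 or Quchi replicate 2 (0.0512 and 0.0722), and Pfkm without Neiguan replicate 2, 3 or 4 or Quchi replicate 2 (0.0586 to 0.127).

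Genes of nerves and of their receptors moved in both directions. Th, tyrosine hydroxylase, the first enzyme of noradrenaline synthesis, was at 1.75, 1.22, 1.47 and 1.34 in Neiguan against -0.30, -0.04, -0.30 and 0.36 in Quchi. No Quchi array came near the Neiguan arrays, and the difference of 1.51 ± 0.17 (adjusted p = 1.14e-05) held without each single array. The noradrenaline transporter gene Slc6a2 was at -0.80, -0.90, -0.86 and -0.82 against -1.48, -1.12, -1.29 and -1.01 (0.38 ± 0.11, adjusted p = 0.027, and 0.49 at its other probe). Its call ended without Neiguan replicate 1, 2 or 4 or Quchi replicate 1, 2 or 3 (0.0504 to 0.11) and with median scaling (0.32, adjusted p = 0.0748). Cnp, an enzyme of myelin, was higher by 0.96 ± 0.20 (adjusted p = 0.0055). Prph, a filament protein of peripheral neurons, was lower (-0.73 ± 0.21, adjusted p = 0.0245), but not called without Neiguan replicate 1 or 3 or Quchi replicate 1 or 2 (0.0554 to 0.111). The Schwann cell and neuron list of 15 held 3 higher (20%) and 2 lower (13.3%) genes, with a median of -0.19, against 6.04% and 8.48% of all genes.

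Of 27 adrenergic and muscarinic genes, 3 (11.1%) were higher and 3 (11.1%) lower, against 6.04% and 8.48% of all genes. Chrm3, a muscarinic receptor coupled to calcium release, was at -2.19, -2.09, -1.98 and -2.19 against -2.87, -2.83, -3.17 and -3.06, with no overlap (0.87 ± 0.21, adjusted p = 0.00987), and Adra2b, an inhibitory alpha adrenoceptor, at 1.08, 0.71, 0.94 and 0.78 against 0.20, 0.18, -0.12 and 0.59 (0.67 ± 0.14, adjusted p = 0.0047). Both calls held without each single array, though Adra2b was not called on the shared scan day (0.0805). Chrm2, the vagal receptor of the heart, was at -1.92, -1.84, -2.15 and -1.64 against -2.52, -2.62, -2.54 and -2.26 (0.60 ± 0.16, adjusted p = 0.02), though 0.0656 and 0.071 without Neiguan replicate 4 and Quchi replicate 2, and its other probe stood at 0.08. Adrb1, the main cardiac beta adrenoceptor, was at -2.99, -3.34, -3.30 and -3.07 against -2.98, -2.53, -2.97 and -2.37, lower in Neiguan, with no overlap by a narrow margin (-0.46 ± 0.14, adjusted p = 0.0299). The call was lost without Neiguan replicate 2 or 3 or Quchi replicate 2 or 4 (0.0761 to 0.118), with only the 8 arrays and on the shared scan day (0.0911). Grk2, a kinase that silences adrenoceptors, was lower (-0.53 ± 0.14, adjusted p = 0.0156, and 0.0693 without Quchi replicate 2), as was the cyclic AMP phosphodiesterase gene Pde4b (-0.34, named after its values were seen, and lost without any Neiguan array or Quchi replicate 1, 2 or 3 at 0.0519 to 0.129).

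Of 14 neurotrophin genes, the receptor genes Ntrk2 and Ntrk3 were lower (14.3%) and 0 were higher, against 8.48% and 6.04% of all genes. Ntrk2, the receptor of brain-derived neurotrophic factor, was at 0.06, -0.39, -0.03 and -0.05 in Neiguan against 0.47, 1.14, 0.93 and 1.36 in Quchi (-1.08 ± 0.20, adjusted p = 0.00227), with no overlap, and was called without each single array. Ntrk3 differed by -0.68 ± 0.18 (adjusted p = 0.0176, 0.0905 without Quchi replicate 2 and 0.0504 without Neiguan replicate 1), and its other probe stood at -0.68. The opioid precursor gene Pomc was at an adjusted p of 0.0481 (-0.38) and was not called without any Neiguan array or Quchi replicate 1, 2 or 3 (0.0519 to 0.195).

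Among 30 genes of ion channels and calcium handling, Hcn4, the pacemaker channel, was at -1.77, -1.92 and -1.95 on Neiguan replicates 2 to 4 and at -3.26, -3.34, -3.43 and -2.48 in Quchi. Its spots on Neiguan replicate 1 were marked as outliers and that array was dropped from its fit. All measured Neiguan arrays were above all Quchi arrays (1.26 ± 0.26, adjusted p = 0.00442), without each single array as well. Kcnj2, the inward rectifier that sets the resting potential, was at -5.53, -4.75, -5.13 and -4.99 against -3.39, -3.92, -4.12 and -4.38 (-1.15 ± 0.33, adjusted p = 0.026), with calls lost without Neiguan replicate 1, 3 or 4 or Quchi replicate 1 or 2 (0.0509 to 0.0981). Camk2d and Calr, of calcium signalling and storage, were higher (0.77 and 0.43), each with overlap and each lost without Neiguan replicate 1, 2 or 4 or Quchi replicate 1, 2 or 3 (0.0522 to 0.141 and 0.0579 to 0.112). Clic6, listed as an atrial gene, was at -2.03, -2.11, -2.53 and -1.74 against -6.86, -5.60, -4.01 and -3.24, of which 3 were well above background (2.82 ± 0.83, adjusted p = 0.0293), but not called without Neiguan replicate 1, 2 or 4 or Quchi replicate 1 or 2 (0.0613 to 0.116). The atrial light chain gene Myl4 was lower (-0.38, adjusted p = 0.0344, and -0.23 with quantile normalization, adjusted p = 0.074), and not called without any Neiguan array or Quchi replicate 1 or 2 (0.0531 to 0.155).

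Of 14 angiotensin, kinin and endothelin genes, 2 (14.3%) were higher and 0 lower, against 6.04% and 8.48% of all genes. Prcp, a peptidase of angiotensin and kinins, was higher by 1.26 ± 0.33 (adjusted p = 0.0177), a call lost without Neiguan replicate 2 or Quchi replicate 1 or 2 (0.0585 to 0.0719). Of 19 adenosine and ATP genes, 4 (21.1%) were lower and 0 higher, with a median of -0.03, against 8.48% lower and 6.04% higher of all genes. Adora1, the adenosine receptor that slows the heart, was at -4.97, -4.98, -4.85 and -5.20 against -4.81, -4.37, -4.33 and -4.22 (-0.57 ± 0.15, adjusted p = 0.0164). Nt5e, which makes adenosine outside the cell, was lower (-0.59 ± 0.18, adjusted p = 0.0369), and the nucleoside transporter gene Slc29a1 likewise (-0.37 ± 0.12, adjusted p = 0.0451). P2rx7, which encodes a channel opened by ATP, was well above background on 0 Neiguan arrays and 2 Quchi arrays and was at least 1.12-fold lower in Neiguan (adjusted p = 0.0156). All 4 calls were lost without Quchi replicate 2 (0.0594, 0.125, 0.158 and 0.0634). Adora1 was lost also without Neiguan replicate 4 (0.0573), Nt5e without Neiguan replicate 1, 3 or 4 or Quchi replicate 1 or 3 (from 0.065), Slc29a1 without any Neiguan array or Quchi replicate 1 (from 0.0731), P2rx7 without Neiguan replicate 1 or Quchi replicate 1 (from 0.0567), and Adora1 and P2rx7 with normexp (adjusted p = 0.139 and 0.109).

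Clock genes split. Per3, a repressor arm gene, was at 1.06, 0.45, 0.52 and 0.53 against -0.62, -0.40, -0.77 and -0.43 (1.19 ± 0.15, adjusted p = 4.97e-05), with its other 2 probes between -0.05 and 0.43. Per1 was at -2.90, -3.10, -2.92 and -2.75 against -3.63, -3.38, -3.54 and -3.12, with no overlap (0.50 ± 0.14, adjusted p = 0.0213), and was not called without Neiguan replicate 1 or 4 or Quchi replicate 1, 2 or 3 (0.0539 to 0.0756). The activator gene Bmal1 was at -1.29, -1.14, -0.98 and -1.29 against -0.71, -0.65, 0.02 and -0.43, below on every Neiguan array but not called (-0.73 ± 0.37, adjusted p = 0.192). Dbp, Npas2 and Nr1d1 stood at 0.09 ± 0.37, 0.05 ± 0.27 and -0.47 ± 0.37 (adjusted p = 0.889, 0.912 and 0.421), with overlap. Csnk1e, a kinase that marks Per proteins for decay, was lower with overlap (-0.93 ± 0.24, adjusted p = 0.0176). It was not called without Neiguan replicate 2 or Quchi replicate 2 (0.0636 and 0.0672), and its other probes stood between -0.41 and 0.15. Of the 18 clock genes, 2 (11.1%) were higher and 1 (5.56%) lower, against 6.04% and 8.48% of all genes.

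Of 26 cell death and damage response genes, 4 (15.4%) were higher, 0 were lower and the median was 0.14, against 6.04% higher and 8.48% lower of all genes. Bid, which carries the death receptor signal to mitochondria, was at -1.46, -1.90, -2.27 and -1.65 in Neiguan against -4.09, -3.70, -2.69 and -2.30 in Quchi (1.37 ± 0.31, adjusted p = 0.00695), and Xiap, an inhibitor of caspases, at -2.19, -1.90, -2.65 and -2.06 against -3.94, -4.04, -3.27 and -2.80 (1.31 ± 0.28, adjusted p = 0.00594, and 1.21 at its other probe). In both the Quchi males were lowest and the groups did not overlap, and both were called without each single array, though Bid was not called on the shared scan day (0.0508). Pmaip1, which promotes apoptosis at mitochondria, was higher by 1.45 ± 0.40 (adjusted p = 0.0203), a call lost without Neiguan replicate 2 or 4 or Quchi replicate 1 or 2 (0.0517 to 0.0809).

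Of 21 heat shock protein and chaperone genes, 4 (19%) were lower and 0 higher, also with quantile normalization. Of the 21, 14 belong to the brightest class, in which 15.8% were lower, and the count was 2 without Quchi replicate 2 and 1 on the shared scan day. The lower shares of all genes in these fits were 1.85% and 4.11%. Hspd1, the chaperonin of the mitochondrial matrix, was at 4.62, 4.71, 4.71 and 4.62 against 5.37, 5.59, 5.32 and 5.03, with no overlap (-0.66 ± 0.15, adjusted p = 0.00661), and was called without each single array. The heat shock factor gene Hsf1 was at 0.66, 0.46, 0.58 and 0.55 against 0.86, 0.99, 0.89 and 1.01 (-0.37 ± 0.09, adjusted p = 0.0142, and 0.058 without Quchi replicate 2). Hsf2 and the chaperone gene Hspa1l differed by -0.51 ± 0.12 and -0.65 ± 0.16 (adjusted p = 0.00948 and 0.0135). The other Hsf2 probe stood at 0.24, Hsf2 was not called on the shared scan day (0.0715), and Hspa1l was not called without Quchi replicate 1 or 2 (0.0544 and 0.0622). Of 30 antioxidant genes, Sod1 and Prdx3, which remove superoxide and peroxide, were lower (-0.43 and -0.42) and the glutathione reductase gene Gsr higher (0.75). Sod1 was lost without Neiguan replicate 2 or Quchi replicate 2 (0.0736 and 0.093), Prdx3 without Neiguan replicate 4 or Quchi replicate 1 or 2 (0.0521 to 0.082), and Gsr without any Neiguan array or Quchi replicate 1 or 2 (0.0559 to 0.135). Nox4, whose enzyme produces peroxide, was higher by 0.77 ± 0.24 (adjusted p = 0.0387), but not called without Neiguan replicate 2 or 3 or Quchi replicate 2 or 3 (0.0775 to 0.17). Among 22 genes of matrix proteases and inhibitors, Mmp11, Mmp13 and Mmp19 were lower (-0.54, -0.64 and -0.85) and the inhibitor gene Timp3 was higher (0.44), all lost without Quchi replicate 2 (0.0768, 0.0808, 0.0925 and 0.0952). Mmp11 was lost also without Neiguan replicate 1 (0.0524), Mmp13 without Neiguan replicate 3 or 4 (from 0.0636), Mmp19 without Neiguan replicate 3 or 4 or Quchi replicate 1 (0.0555 to 0.0942), and Timp3 without any Neiguan array or Quchi replicate 1 or 3 (0.0601 to 0.148). Fibroblast growth factor genes diverged, with Fgf1 at 1.53, 1.06, 1.44 and 1.13 against 0.40, 0.37, 0.57 and 1.06 (0.69 ± 0.16, adjusted p = 0.00756, and 0.108 on the shared scan day) and Fgf2 at -4.92, -5.00, -4.95 and -4.71 against -4.16, -4.15, -3.97 and -4.29 (-0.75 ± 0.22, adjusted p = 0.0266). Fgf2 was not called without Neiguan replicate 1, 2 or 4 or Quchi replicate 1, 2 or 3 (0.0504 to 0.0893).

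Of 13 endothelial markers, 0 were called (limma; 1 with quantile normalization, Pecam1, higher), with differences from -0.24 to 0.40. Pecam1 was at 4.22, 3.90, 4.51 and 4.22 against 4.07, 4.00, 3.57 and 4.15 (0.26 ± 0.16, adjusted p = 0.288), and the receptor genes Tie1 and Aplnr stood at 0.38 ± 0.19 and 0.40 ± 0.21 (adjusted p = 0.18 and 0.204). Of red cell and platelet genes 0 of 15 were called, of lymphatic, adipocyte and mast cell genes 0 of 6, 8 and 9, of smooth muscle and pericyte genes 1 of 13 (Lmod1, -1.18 ± 0.20, adjusted p = 0.000847) and of mesothelial genes 1 of 4 (Msln, 1.25 ± 0.39, adjusted p = 0.0361). Msln was not called without Neiguan replicate 2, 3 or 4 or Quchi replicate 1, 2 or 3 (0.0587 to 0.106). Of 10 liver plasma protein genes, Hpx, haemopexin, was higher (1.04 ± 0.22, adjusted p = 0.0048), and of 10 skeletal muscle genes Ckm and Myod1 were lower, Myod1 at least 1.69-fold since it was well above background on 0 Neiguan arrays, and the calls were lost without Neiguan replicate 2, 3 or 4 or Quchi replicate 1 or 2 for Ckm (0.0538 to 0.166) and without Neiguan replicate 1, 2 or 4 or Quchi replicate 1, 2 or 4 for Myod1 (0.0659 to 0.118). The mean level over the smooth muscle and pericyte list was 0.19 to 0.36 on the Neiguan arrays and 0.47 to 0.55 on the Quchi arrays, without overlap. Over the mesothelial list it was -2.30 to -1.94 and -2.67 to -2.54, and over the skeletal muscle list -1.54 to -1.30 and -1.31 to -1.03. The part of these tissue elements in the gene differences was not tested.

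For genes well above background on 0 arrays of 1 point and all 4 of the other, only bounds can be given. The keratin gene Krt15 was at least 2.61-fold higher in Neiguan (adjusted p = 0.00112), the odorant receptor gene Or14j5c at least 2.52-fold (adjusted p = 0.0064, and 0.0522 on the shared scan day) and the metalloprotease gene Mmp28 at least 1.74-fold (adjusted p = 0.0259, and 0.15 with normexp). Mmp28 was not called without Neiguan replicate 2 or 4 or Quchi replicate 1, 2 or 3 (0.0576 to 0.0903) or on the shared scan day (0.0728). In the other direction, Or9g4, Or10ac1, Ccdc166, Trim66 and the laminin chain gene Lamc3 were at least 3.09-, 2.32-, 2.28-, 1.98- and 1.93-fold lower in Neiguan (adjusted p = 0.000817 to 0.0222), of which Lamc3 was not called without Neiguan replicate 4 or Quchi replicate 1 or 2 (0.0621, 0.0648 and 0.0613). As a group, 575 chemoreceptor genes, which serve smell and taste and are faint in heart, had 60 members higher (10.4%) and 31 lower (5.39%) and a median of 0.15. Of all genes, 6.04% were higher and 8.48% lower, of the faintest class 4.84% and 6.36%, and of the next to faintest 9.68% and 4.53%. The classes to which the chemoreceptor genes belong were not counted.

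The points were also set beside the injured rats without acupuncture. The genes were chosen for their difference between the points, so the counts that follow are a description, from which nothing is read. The IRI mean lay between the 2 points in 596 of the 779 higher (76.5%) and 1014 of the 1094 lower genes (92.7%), and in 5668 (44%) of all genes. Higher genes had a median difference from IRI of 0.44 in Neiguan and -0.30 in Quchi, and 270 of them were called higher than IRI in Neiguan and 83 lower than IRI in Quchi. Of all genes, 4.41% and 1.05% were so called. Lower genes had medians of -0.26 and 0.28, with 85 called lower in Neiguan and 58 called higher in Quchi, against 1.23% and 2.39% of all genes. Both differences use the same 4 IRI arrays. Among the 6 group means, Quchi was the highest in 872 of the 1094 lower genes, and Neiguan the highest in 361, Jiaji in 223 and sham in 179 of the 779 higher ones. Tbx3 differed from IRI by 2.57 in Neiguan and -2.04 in Quchi, Uts2 by 1.33 and -1.75, and Il33 by 1.41 and -1.30. Th, Nos2 and Per3 stood away from IRI in Neiguan (1.28, 1.12 and 1.16) and near it in Quchi (-0.23, -0.25 and -0.03). Csrp3, Fhl1 and Tnfrsf12a stood near it in Neiguan (0.07, 0.13 and -0.18) and away from it in Quchi (0.64, 0.77 and 0.86).

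**Figure D5:**
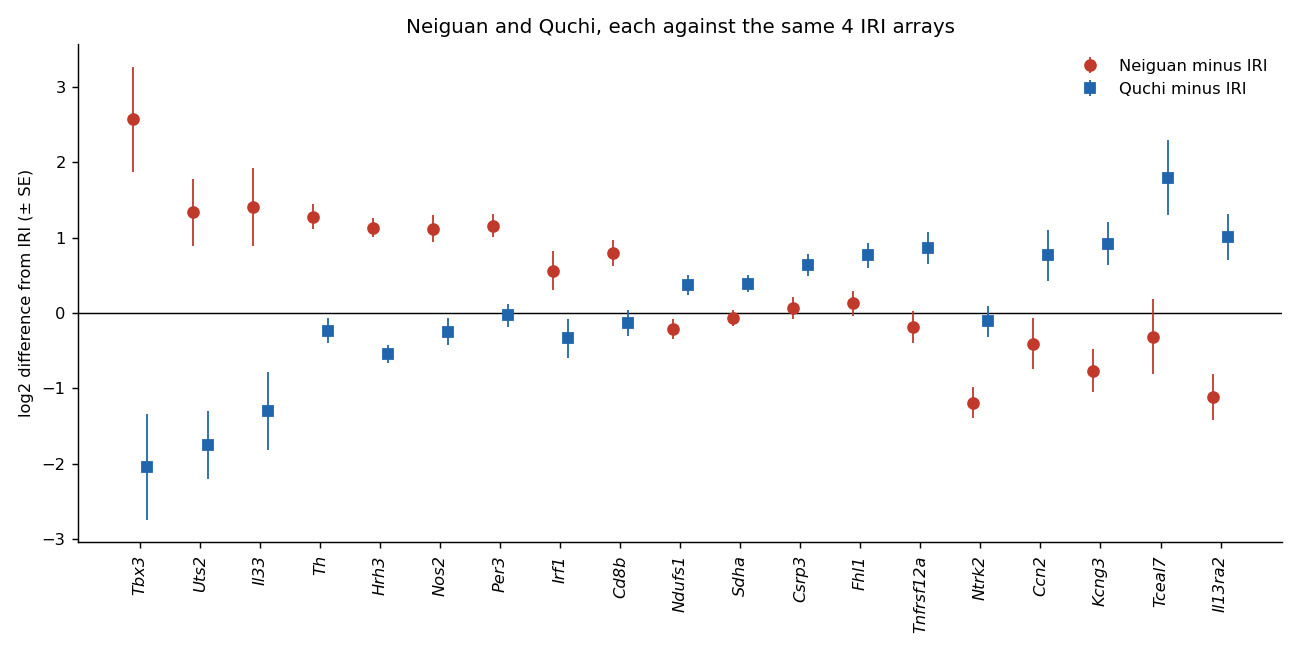
Log2 difference from IRI with its standard error (vertical axis) for 19 genes, in Neiguan (red circles) and in Quchi (blue squares); both are measured against the same 4 IRI arrays. The 9 genes at the left are higher in Neiguan than in Quchi and the 10 at the right lower, and for Ntrk2 the Neiguan point lies at -1.19 and the Quchi point at -0.11.

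Whether the difference between the points depended on sex was tested in a fit of group-by-sex means. Of 12884 genes, 0 (0%) were called (limma; 870 at an unadjusted p under 0.05, smallest adjusted p 0.196). Each group held 2 animals of each sex. Among the called genes the difference had the same sign in males and females in 778 of 779 higher and all 1094 lower genes, which the choice of called genes largely sets, and in 8946 (69.4%) of all genes. It was the larger in males in 613 (78.7%) and 860 (78.6%) of them and in 8378 (65%) of all genes, with medians of 0.91 in males and 0.62 in females for higher genes and -0.64 and -0.43 for lower genes. Tnnt1 differed by -2.83 in males and -0.29 in females, Nppa by -3.25 and 0.58, and Polm by 2.59 and 3.16. With Quchi replicate 2 left out, which leaves the male of the later scan day as the only Quchi male, 193 genes were called for this difference.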

How the data were processed

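Per the file headers, each spot's intensity had its background subtracted and a spatial trend removed by Agilent Feature Extraction 11.0.1.1 (10.7.3.1 per the submitters' processing notes). Its marks for bright, saturated or uneven spots (other values) come from the same step, per the file headers. The authors' deposited log2 value table, an alternative here, follows these signals, correlates with them at 0.997 to 1.00 and has a median of 7.21 on every array; it holds log2 levels with no centring on genes, and no source used here names its tool. Control spots (1377 an array) and 8733 outlier spots were left out, 0 were saturated, and spots were averaged to 30367 probes. RefSeq accessions named 18005 of them (59.3%) for 15168 genes. Of these, 12894 had a probe that every array of some group measured well above background, and the probe of highest mean signal stood for the gene. The log2 processed signal minus each array's 75th percentile was fitted in R 4.3.3 with limma 3.58.1 over all 24 arrays, with group and sex (17 residual degrees of freedom). P-values are two-sided and set a difference against the spread between arrays within groups, in the main fit estimated over all 24 arrays. That fit has no term for scan. The number of arrays limits the precision.

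Named genes were the 15 largest higher and lower called genes well above background on all 8 arrays without overlap, the 5 of smallest p each way, up to 5 called members per list, up to 5 bounds each way and a fixed panel. Members and lists were chosen with earlier results of these data known. Alternatives covered scaling, background (normexp on the median signal, offset 50), filters, covariates, scans and single arrays. Replicate numbers do not pair the samples. A few genes are not reported here; they count in the totals.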

Additional observations from a re-analysis of the deposited data

Results flagged for a closer look

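In 18 of 321 groups of 4 arrays of the named genes (5.61%), 1 array stood far from the other 3 by Dixon's criterion, which chance meets in about 1 in 20 groups. In Neiguan, replicate 1 was low for Ccl12 (-2.01) and high for Per3 (1.06). Replicate 2 was low for C8h3orf62 (0.89) and high for Il13ra2 (-4.86) and Xirp2 (2.98). Replicate 3 was low for Cd8b (-1.63) and Cimap1c (-5.28) and high for Tceal7 (2.45). In Quchi, replicate 1, scanned on the later day, was low for Grk2 (-0.22) and Il10 (-3.59), and replicate 2 was high for Sod1 (6.14). Replicate 3 was low for Fhl1 (3.67), Kdr (4.43) and Mmp28 (-7.57). Replicate 4 was high for Calr (1.19), Jsrp1 (1.42), Ptprv (1.31) and Sh3d21 (-1.47).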

How the results depend on the processing

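The total of called genes was within 1.5 times of 1873 under quantile normalization, median scaling, normexp, the authors' value table, both filters on dim probes, no sex term and only the 8 arrays (1530 to 1919). Outside it lay scan as a random block (3180: 1228 higher, 1952 lower), scan day as a fixed block, which is the same fit as leaving out Quchi replicate 1 (964: 404 and 560), only arrays of the shared scan day (1000: 470 and 530) and every probe tested (4243: 1982 and 2261, of 25149 probes). In the random block fit the estimated correlation within scans was negative (-0.0998). Each scan holds arrays of a single group, so that fit does not take scan out of the difference between the points. The replicate number as a block left 0 calls (limma; 3391 genes at an unadjusted p under 0.05) and 0 list members, and all calls of single genes ended with it; nothing in the labels says that a number marks a shared animal or batch, and deviations of same-numbered arrays correlated at -0.30, -0.08, 0.06 and 0.17. The percentile over spots, an alternative added after seeing the data, gave 692 lower genes. Leaving out 1 array gave 609 to 2685 genes, 371 to 1152 higher, 238 to 1533 lower, 0 to 193 genes with a sex difference, and 27 to 139 list members in place of 102. List members called numbered 176, 49 and 58 with scan as a random block, scan day as a fixed block and the shared scan day.

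Of 3013 values of 138 called named genes in other settings, 3012 kept their direction and 2343 stayed past the threshold. The exception was Csnk1e, at 0.15 once every array had to be above background, which put another probe in its place (not called, adjusted p = 0.517). Of these genes 57 stayed called in every setting but the replicate block, 120 with quantile normalization and 65 without Quchi replicate 2. Genes that were not called and lay near 0 changed sign: Kdr (0.17, 0.20 and 0.17 with quantile normalization, normexp and the authors' table, 0.0027 with the random block, 0.027 with the scan day block, 0.019 within the shared day, 0.055 with spots, and -0.0599 to 0.0499 without single arrays), Hbb (0.0791, 0.0722 and 0.0797 with the same 3, and -0.152 to 0.0502 without single arrays), Npas2 (-0.0100 with quantile normalization, -0.0107 with median scaling, -0.0127 with the authors' table, -0.0562 with the scan day block, -0.0770 within the shared day, and -0.0562 to 0.154 without single arrays), Tnni3 (-0.00801 with median scaling, and -0.0160 to 0.143 without single arrays), Dbp (-0.119 to 0.355 without single arrays) and Myh6 (-0.0156 to 0.165 without single arrays). The median of all genes was -0.13 under median scaling. The cause of these changes was not tested. Signal over background limits faint genes: bounds are given where no array of 1 point was well above background, and 12362 probes stayed unnamed.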
